A study of Mus musculus with 12 samples.

Results

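The genes described are 10 controllers of the G1 phase of the cell cycle: the D cyclins Ccnd1, Ccnd2 and Ccnd3, the CDK inhibitors Cdkn1b, Cdkn1c, Cdkn2c and Cdkn2d, and the retinoblastoma family Rb1, Rbl1 and Rbl2. They were chosen by symbol, as every probe set whose platform annotation gave exactly 1 of these names; the rule uses no measured value, but the set was picked with earlier results of these data known. They are 10 of 18193 genes so named and hold 26 probe sets, of which 23 were bright enough to be tested. All 10 genes were tested through their brightest probe set. RNA came from G1ME cells, a mouse progenitor line of megakaryocytes and red cells that is labelled Gata1-negative in every group. The cells were transduced with the MIGR1 retrovirus, which marks cells with green fluorescent protein (GFP), either as the control vector or carrying GATA1. GFP-positive cells were sorted after 18 h or 42 h, which gave 4 groups of 3 arrays lettered A, B and C: vector 18 h, GATA1 18 h, vector 42 h and GATA1 42 h. The labels call the triplicates biological and do not say which cultures, sorts or days the letters stand for, so a p-value measures the spread between these arrays. All results come from 1 line, with GATA1 driven from a retrovirus and only the GFP-positive cells kept.

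D cyclins pair with CDK4 and CDK6 when growth factors are present, and the kinases then phosphorylate the pocket proteins RB1, RBL1 (p107) and RBL2 (p130), which releases E2F factors and opens S phase. The INK4 proteins CDKN2C (p18) and CDKN2D (p19) bind CDK4 and CDK6 and keep D cyclins off them, while the CIP/KIP proteins CDKN1B (p27) and CDKN1C (p57) act mainly on CDK2 complexes. Maturing red cells and megakaryocytes use these brakes and motors differently: erythroblasts leave the cycle after a set of rapid divisions, and megakaryocytes go on copying DNA without dividing.

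Levels are the deposited linear intensities, which have no unit. Changes are differences of mean log2(intensity + 16) with the SE of the limma fit, and p-values were adjusted by Benjamini-Hochberg across the 10759 tested genes and called under 0.05. A level of one probe set was not set against that of another. The arrays had medians between 8.05 and 8.29, and 29.2% to 29.7% of probe sets read over 100, and their number, 3 per group, limits the precision. GATA1 42 h array A stood apart in control probe sets on the log2 scale: its actin 3′ minus 5′ difference was 0.80 (0.38 to 0.55 on the other 11 arrays), its Gapdh difference -0.11 (-0.50 to -0.26) and its 18S ribosomal RNA value 12.4 (4.79 to 10.6). The erythroid markers Klf1, Epor, Hbb-y and Alas2 summed to between 280 and 368 on the vector 42 h arrays and to between 15266 and 23885 on the GATA1 42 h arrays, and all 3 megakaryocyte markers read (Itga2b, Pf4 and Gp9) exceeded 100 on all 12 arrays. In vector and GATA1 42 h cells these had means of 8111 and 17656 for Pf4, 3539 and 2826 for Itga2b, and 2905 and 2232 for Gp9. The 4 progenitor markers summed to between 7652 and 9312 on the vector and to between 3511 and 4343 on the GATA1 42 h arrays. In vector and GATA1 18 h cells Kit read 349 and 98.5, Gata2 2853 and 2497, and Myb 4073 and 4928. In vector and GATA1 42 h cells Kit read 631 and 42.9, Gata2 3208 and 623, and Myb 4456 and 3368, with Cd34 near 5 throughout. The myeloid marker Mpo read 148 and 9.0, while Elane, Ctsg and Csf1r of the same list read at most 4.53, 4.92 and 21.1 on any array. The mast cell marker Cpa3 had a mean of 2008 in vector 42 h cells and 49.9 in GATA1 42 h cells, while Mcpt8, Ms4a2 and Fcer1a read under 6 throughout, and the lymphoid markers summed to at most 15.7. The part of these shifts in the changes of the 10 genes was not tested. The Gata1 probe set read 3002 ± 284 in vector and 2334 ± 91.0 in GATA1 cells at 18 h, and 3137 ± 116 and 2044 ± 355 at 42 h (mean ± SD, n = 3). It was thus bright in vector cells and lower with the construct (limma, -0.36, adjusted p = 0.227 at 18 h, and -0.63, adjusted p = 0.00344 at 42 h), against the direction of the labels, so it does not check them.

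At 42 h, Rb1 and Cdkn2c rose in GATA1-labelled cells, and Cdkn1c and Rbl2 fell. Rb1 went from 1856 ± 155 to 3000.5 ± 324 and Cdkn2c from 17.7 ± 2.18 to 35.3 ± 7.89 (mean ± SD, n = 3 here and below). Cdkn1c went from 90.0 ± 31.1 to 27.8 ± 4.48 and Rbl2 from 1088 ± 50.9 to 725 ± 80.2. Of the 10 genes 2 thus rose, against 10.3% of all genes tested, and 2 fell, against 10.6%. The other 6 did not pass without a block, among them all 3 D cyclins. With the replicate letter as a block 5 of the 10 passed, where 28.4% of all genes did. They were the 4 named and Rbl1 (-0.23, limma adjusted p = 0.0397). Without GATA1 42 h array A the same 4 passed, at 0.60 for Rb1, 0.50 for Cdkn2c, -1.28 for Cdkn1c and -0.49 for Rbl2 (limma adjusted p from 0.00304 to 0.0281). GATA1 and vector arrays were fully separated for 5 of the 10, against 33.4% of all genes tested. In these sorted cultures a lower share of cells of a type and less RNA per cell cannot be told apart.

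**Figure D1:**
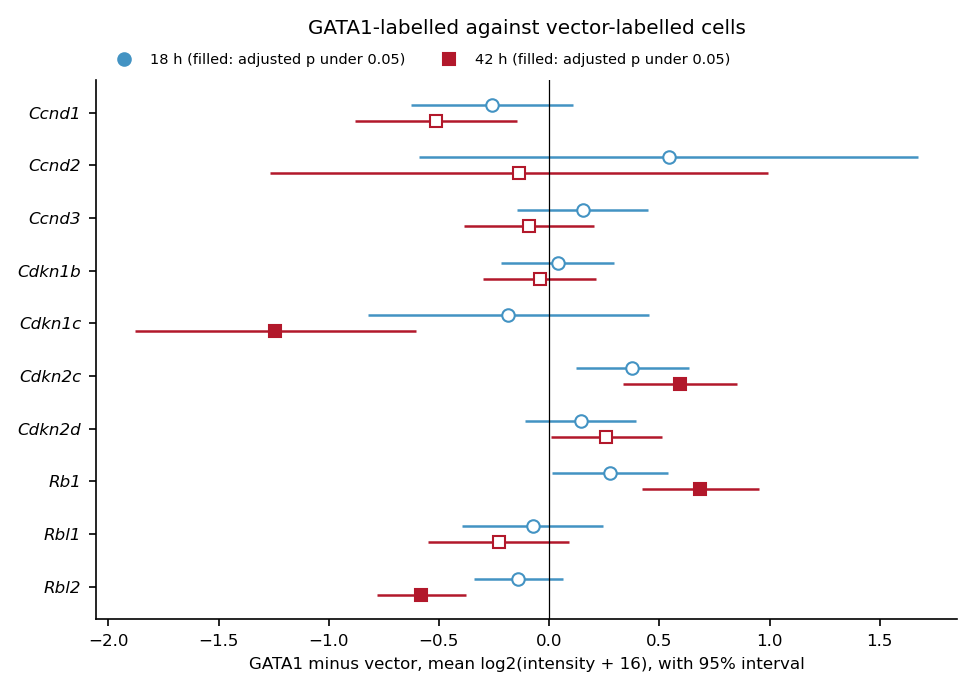
Difference of mean log2(intensity + 16) (GATA1-labelled minus vector-labelled cells) for the brightest probe set of each gene, at 18 h (circles) and 42 h (squares); lines are 95% intervals of the limma fit on 3 arrays per group, and filled marks passed an adjusted p of 0.05. The filled marks are the 42 h values of Cdkn1c, Cdkn2c, Rb1 and Rbl2, and the widest intervals belong to Ccnd2.

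At 18 h none of the 10 genes passed in limma without a block, 2 of them (Cdkn2c and Rb1) had an unadjusted p under 0.05 (9.83% of all genes did), and 1.85% of all genes tested passed. The arrays did not overlap for 3 of the 10 at 18 h, against 15.4% of all genes. With the replicate letter as a block 1 gene passed at 18 h, Rb1, where 3.3% of all genes did. The median change of the 10 genes was 0.09 at 18 h, where that of all genes was -0.01, and -0.11 at 42 h, where that of all genes was 0.00. The median size of change regardless of sign was 0.17 at 18 h, where that of all genes was 0.07, and 0.39 at 42 h, where that of all genes was 0.15.

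**Figure D2:**
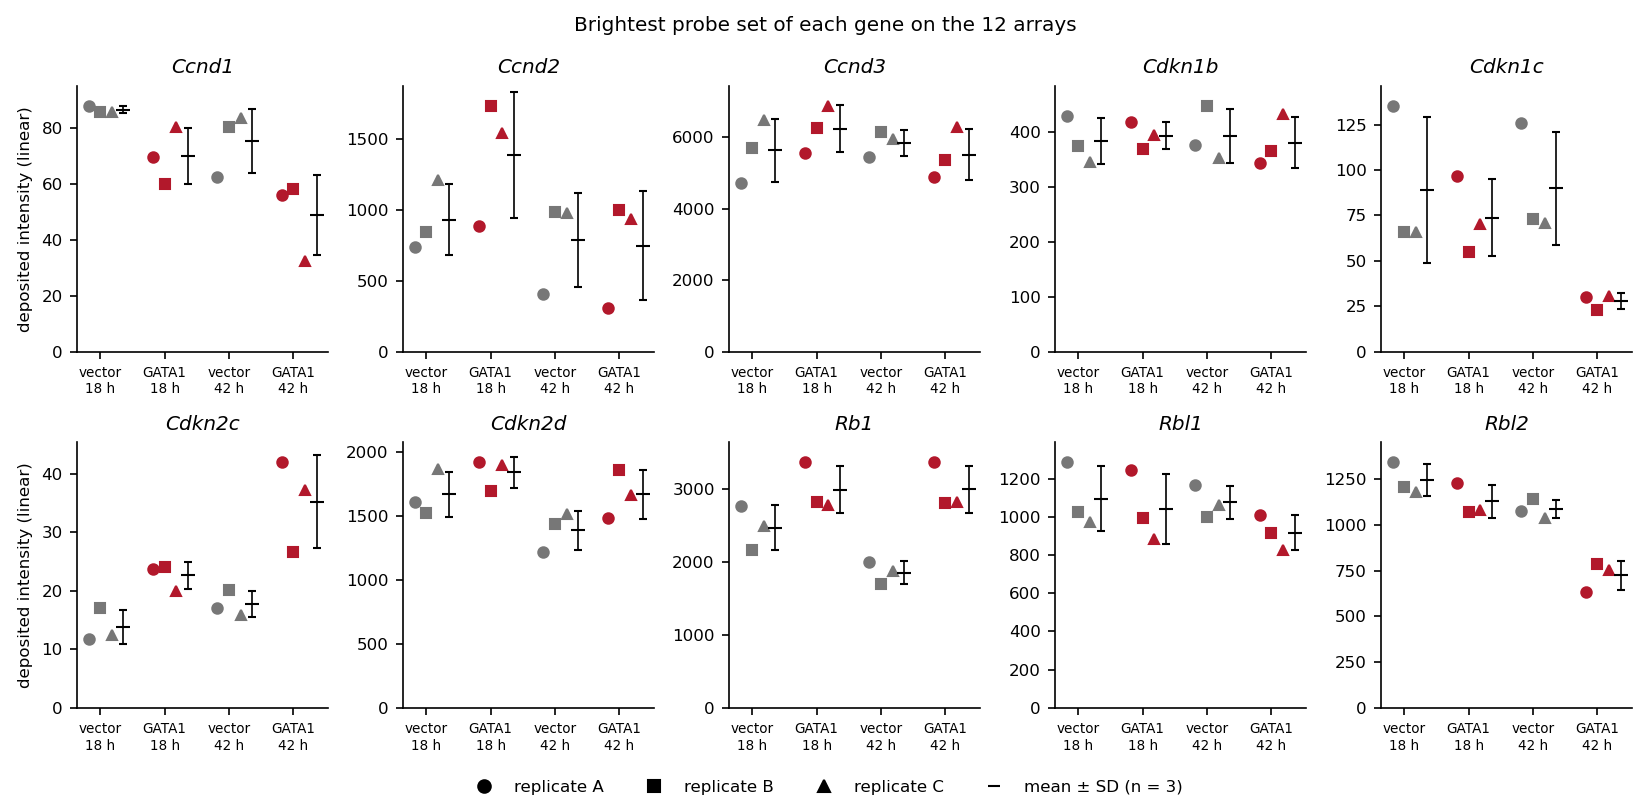
Deposited linear intensity of the brightest probe set of each of the 10 genes on the 12 arrays, by group, with the replicate letter as the marker shape and the mean ± SD (n = 3) as the bar; each panel has its own scale from 0. The GATA1 42 h arrays lie below all others for Ccnd1 (32.3 to 58.2), Cdkn1c (22.6 to 30.5) and Rbl2 (634 to 786). They lie above all others for Cdkn2c (26.6 to 42.0).

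Among the D cyclins, Ccnd1, whose protein links mitogen signals to CDK4 and CDK6, read 87.9, 85.8 and 85.7 on the vector 18 h arrays A, B and C, and 69.6, 60.0 and 80.3 on the GATA1 18 h arrays. In the 42 h cultures it read 62.3, 80.4 and 83.4 in vector cells and 56.0, 58.2 and 32.3 in GATA1 cells. The GATA1 arrays lay below the vector arrays at both times, with no overlap. The change was -0.26 ± 0.16 at 18 h (adjusted p = 0.822) and -0.51 ± 0.16 at 42 h, with a 95% interval of -0.88 to -0.15, and missed the threshold there (adjusted p = 0.0532). Leaving out a single array decided the call: it passed without vector 42 h array A (-0.62, adjusted p = 0.0449) and without GATA1 42 h array B (-0.62, adjusted p = 0.0452), while without GATA1 42 h array C the change was -0.31 (adjusted p = 0.11). The second Ccnd1 probe set stayed between 9.18 and 11.6 on all 12 arrays and the third, at 4.03 to 4.65, was too dim to test.

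Ccnd2, a D cyclin expressed in many blood progenitors, had 7 probe sets, all tested. Its brightest read 739, 841 and 1213 on the vector 18 h arrays A, B and C and 884, 1734 and 1543 on the GATA1 18 h arrays. The 42 h arrays gave 403, 981 and 978 in vector cells and 307, 998 and 937 in GATA1 cells. Array A was the lowest of its group in 27 of the 28 combinations of a probe set and a group, and array B or C was the highest in all 28. The change with GATA1 was 0.54 ± 0.50 at 18 h (adjusted p = 1.0) and -0.14 ± 0.50 at 42 h, with a 95% interval of -1.27 to 0.99 (adjusted p = 0.946). The sign of the 42 h value changed with the array left out: it was -0.55 without vector 42 h array A and 0.40 without GATA1 42 h array A. Within letters all 21 values at 18 h (7 probe sets by 3 letters) were higher in GATA1 cells, by 0.25 to 1.03. At 42 h 7 were higher and 14 lower. The probe sets read 1 gene from the same arrays and are not replicates. Over all probe sets, the adjusted p of the 7 lay between 0.95 and 1.0 at 18 h, where 1.12% of all probe sets passed, and between 0.904 and 0.998 at 42 h, where 15.8% did. A control probe set at the 5′ part of 18S ribosomal RNA read between 8.32 and 12.4 on the log2 scale on the A arrays, between 5.53 and 10.6 on B and between 4.79 and 6.75 on C; its part in the low A values was not tested.

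**Figure D3:**
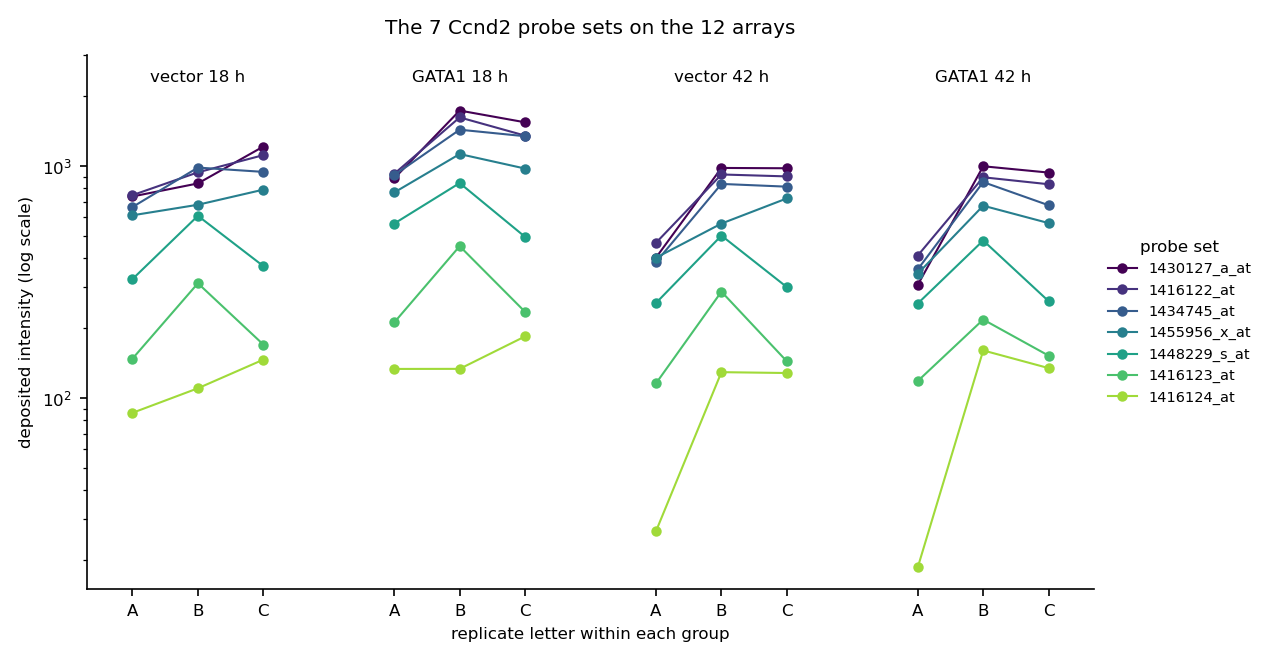
Deposited intensity (log scale) of the 7 Ccnd2 probe sets on arrays A, B and C of each group, with a line joining the arrays of a group for each probe set. Array A is the lowest in nearly every line, and the GATA1 18 h values lie above the vector 18 h values of the same letter for all 7 probe sets.

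Ccnd3, the D cyclin that is prominent in erythroid precursors, was bright in all groups. Its brightest probe set read 4725, 5689 and 6478 on the vector 18 h arrays and 5564, 6243 and 6880.2 on the GATA1 18 h arrays. The 42 h arrays gave 5443, 6145 and 5959.6 in vector cells and 4883, 5367 and 6284 in GATA1 cells. The groups overlapped at both times and array A was the lowest in all 4 groups. The change was 0.15 ± 0.13 at 18 h (95% interval -0.14 to 0.45, adjusted p = 0.998) and -0.09 ± 0.13 at 42 h (-0.39 to 0.20, adjusted p = 0.736). The 2 other Ccnd3 probe sets read 16.2 to 27.5, near the low end of the scale, and 37.1 to 61.0. They gave 0.14 and -0.10 at 18 h and -0.025 and -0.10 at 42 h, and neither passed. The sign at 18 h thus differed between probe sets.

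Of the CIP/KIP inhibitors, Cdkn1b (p27), which brakes cyclin E and CDK2, did not pass at either time. It read 429.5, 375 and 346 on the vector 18 h arrays and 418, 369 and 394 on the GATA1 18 h arrays, and 377, 448 and 353 in vector and 344, 365 and 433 in GATA1 cells at 42 h. The groups overlapped at both times. The change was 0.04 ± 0.11 at 18 h (95% interval -0.22 to 0.30, adjusted p = 1.0) and -0.04 ± 0.11 at 42 h (-0.30 to 0.21, adjusted p = 0.901). The second probe set, at 8.24 to 22.3, did not pass either.

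Cdkn1c (p57), an imprinted inhibitor known for quiescence in blood stem cells, showed the largest change of the 10 genes at 42 h. Its only probe set read 135.5, 65.7 and 65.7 on the vector 18 h arrays A, B and C and 96.6, 54.7 and 70.3 on the GATA1 18 h arrays. At 42 h it read 126, 73.3 and 70.8 in vector cells and 30.3, 22.6 and 30.5 in GATA1 cells. The groups overlapped at 18 h and did not at 42 h, and array A was the highest in the first 3 groups. Cdkn1c fell by 1.24 ± 0.28 at 42 h (limma adjusted p = 0.0124), lower in 3 of 3 letters, to 0.309 of the vector mean in intensity. The size depends on the constant added before the log, from -0.73 with 64 to -1.62 with 1, and the adjusted p lay between 7.28e-04 and 0.0486 in 21 alternatives. At 18 h the change was -0.19 ± 0.28 (adjusted p = 1.0).

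Of the INK4 inhibitors, Cdkn2c (p18) was dim in vector cells and rose at 42 h. Its only probe set read 11.8, 17.1 and 12.4 on the vector 18 h arrays and 23.8, 24.1 and 20.0 on the GATA1 18 h arrays. The values at 42 h were 17.1, 20.2 and 15.9 in vector cells and 42.0, 26.6 and 37.2 in GATA1 cells. The groups did not overlap at either time. The change was 0.38 ± 0.12 at 18 h (adjusted p = 0.206) and 0.59 ± 0.12 at 42 h (adjusted p = 0.00516), higher in 3 of 3 letters, and the mean intensity at 42 h was 1.99 times that of vector cells. Without the 4 arrays lettered A the 42 h change was 0.49 and missed the threshold (adjusted p = 0.0793). Near the low end of the scale the size depends on the constant added, from 0.28 with 64 to 0.94 with 1.

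The bases before the Cdkn2c start site are shown because it is the INK4 gene that rose, with the motifs searched in capitals. The 250 bases before each start came from RefSeq on GRCm38.p6, which lists 8 such windows for 6 of the 10 genes (Ccnd3, Cdkn1b, Cdkn2c, Cdkn2d, Rbl1 and Rbl2). Motifs were searched on both strands: GATA sites (GATAA or GATAG after an A or a T, in 26.5% of 32851 windows of all genes), E2F sites (TTTCCCGC, TTTGGCGC or TTTCGCGC, 1.53%), the cell cycle homology region TTTGAA (16%), the E-box CACGTG (6.02%) and the GC box GGGCGG (32.7%). Cdkn2c has 2 windows. The one at chr4:109665373-109665622 on the minus strand, 42.8% G and C, holds none of these motifs and is not printed. The other, chr4:109666757-109667006 on the minus strand, is 77.2% G and C and holds 3 GC boxes, which begin 95, 51 and 40 bases before the start.
Cdkn2c: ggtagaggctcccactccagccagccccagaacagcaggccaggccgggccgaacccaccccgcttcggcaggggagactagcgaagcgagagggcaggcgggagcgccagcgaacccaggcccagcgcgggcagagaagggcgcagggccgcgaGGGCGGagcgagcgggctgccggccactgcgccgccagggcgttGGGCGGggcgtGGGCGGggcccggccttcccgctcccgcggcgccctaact
None of the 8 windows holds one of these GATA letters, which says nothing about GATA1 binding elsewhere or in another form.

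Cdkn2d (p19), the other INK4 gene of the set, was bright throughout. It read 1609.7, 1526 and 1869 on the vector 18 h arrays, 1923, 1697 and 1901 on the GATA1 18 h arrays, 1219, 1437 and 1513 on the vector 42 h arrays, and 1481, 1858 and 1666 on the GATA1 42 h arrays. The GATA1 and vector arrays overlapped at both times. The change was 0.14 ± 0.11 at 18 h (adjusted p = 0.955) and 0.26 ± 0.11 at 42 h (adjusted p = 0.145), higher in 3 of 3 letters at 42 h, and it passed only where limma weighted the arrays (0.34, adjusted p = 0.0336).

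Of the pocket proteins, Rb1, the tumour suppressor needed for the last steps of red cell maturation, rose at 42 h. Its brightest probe set read 2770.4, 2161 and 2488 on the vector 18 h arrays and 3367, 2824 and 2785 on the GATA1 18 h arrays. At 42 h it read 2001, 1693 and 1875 in vector cells and 3374, 2804 and 2823 in GATA1 cells. The groups did not overlap at either time, and array A was the highest in all 4 groups. The difference was 0.28 ± 0.12 at 18 h (adjusted p = 0.465, and 0.0315 with the letter as a block) and 0.69 ± 0.12 at 42 h (adjusted p = 0.00263), to 1.62 times the vector mean in intensity. From 18 h to 42 h the difference was 0.00 ± 0.12 in GATA1 cells (adjusted p = 0.999) and -0.41 ± 0.12 in vector cells (adjusted p = 0.456, and 0.0304 with the block), where the arrays of the times did not overlap. The second Rb1 probe set, at 10.01 to 14.8, had a difference of 0.08 at 42 h (adjusted p = 0.472), near the low end of the scale.

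Rbl1 (p107) is a pocket protein that binds some E2F factors in cycling cells. It read 1287, 1024 and 973 on the vector 18 h arrays and 1244, 995 and 885 on the GATA1 18 h arrays. At 42 h it read 1167, 998 and 1063 in vector cells and 1011, 914 and 827 in GATA1 cells. The groups overlapped at both times, and array A was the highest in all 4 groups. The change was -0.07 ± 0.14 at 18 h (adjusted p = 1.0) and -0.23 ± 0.14 at 42 h (adjusted p = 0.326, and 0.0397 with the letter as a block, where 28.4% of all genes passed), lower in 3 of 3 letters at 42 h. Its second probe set, made to another transcript accession, had the opposite sign: it read 169, 199 and 185 in vector 42 h cells and 217, 208.5 and 213 in GATA1 42 h cells (0.19 ± 0.14, adjusted p = 0.432), with no overlap. The probe sets of Rbl1 thus disagree in sign at 42 h, and neither passed without the block.

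Rbl2 (p130), the pocket protein of resting cells and of the DREAM repressor complex, fell at 42 h. Its brightest probe set read 1346, 1211 and 1182 on the vector 18 h arrays and 1233, 1072 and 1085 on the GATA1 18 h arrays. At 42 h it read 1079.8, 1142 and 1041 in vector cells and 634, 786 and 754.5 in GATA1 cells. The groups overlapped at 18 h and did not at 42 h. The change was -0.14 ± 0.09 at 18 h (adjusted p = 0.832) and -0.58 ± 0.09 at 42 h (adjusted p = 0.00146), to 0.667 of the vector mean in intensity and lower in 3 of 3 letters. The second Rbl2 probe set read 318, 416 and 354 in vector 42 h cells and 143, 286 and 300.2 in GATA1 42 h cells, also with no overlap, and its change of -0.61 ± 0.23 missed the threshold over all probe sets (adjusted p = 0.123).

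The windows before the starts of Rbl1 and Rbl2 are shown because Rbl2 fell at 42 h and Rbl1 is its close relative, whose probe sets differed in sign; the change of the one gene was not tested against that of the other. They are printed with the motifs found in capitals. The Rbl1 window, chr2:157204535-157204784 on the minus strand, holds the E2F letters TTTCGCGC 18 to 11 bases before the start and a GC box on the reverse strand. The Rbl2 window, chr8:91069807-91070056 on the plus strand, holds TTCAAA, the reverse complement of TTTGAA, 201 to 196 bases before the start, and no E2F letters. The Rbl1 window is 63.6% G and C and the Rbl2 window 46.8%.
Rbl1: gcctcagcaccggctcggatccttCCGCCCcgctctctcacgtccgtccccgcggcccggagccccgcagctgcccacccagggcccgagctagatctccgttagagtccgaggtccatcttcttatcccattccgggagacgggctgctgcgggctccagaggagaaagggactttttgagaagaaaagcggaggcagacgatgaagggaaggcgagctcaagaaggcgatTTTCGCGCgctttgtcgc
Rbl2: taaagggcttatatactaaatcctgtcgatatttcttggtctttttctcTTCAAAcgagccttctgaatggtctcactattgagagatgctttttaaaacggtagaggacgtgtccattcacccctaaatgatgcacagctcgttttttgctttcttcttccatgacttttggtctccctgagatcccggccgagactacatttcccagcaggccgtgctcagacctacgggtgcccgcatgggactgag
These matches describe the letters in the windows, and no binding was measured.

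The difference between the GATA1 effects at 42 h and at 18 h was tested as an interaction, and none of the 10 genes passed in limma without a block, while 3 (Cdkn1c, Rb1 and Rbl2) had an unadjusted p under 0.05 (16.04% of all genes did) and 4.68% of all genes tested passed. The difference was -1.06 ± 0.40 for Cdkn1c (adjusted p = 0.225), 0.41 ± 0.17 for Rb1 (adjusted p = 0.258), -0.44 ± 0.13 for Rbl2 (adjusted p = 0.101) and 0.22 ± 0.16 for Cdkn2c (adjusted p = 0.644). With the letter as a block, which did not meet the rule for pairing in this comparison, 2 of the 10 passed, Cdkn1c (adjusted p = 0.0259) and Rb1 (0.0145), where 7.93% of all genes did. A difference between the times was thus not shown for Rbl2 and Cdkn2c, and for Cdkn1c and Rb1 it depended on the block.

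From 18 h to 42 h in vector cells none of the 10 genes passed in limma without a block, 2 (Cdkn2d and Rb1) had an unadjusted p under 0.05 (6.28% of all genes did), and 0.0186% of all genes passed. With the letter as a block 1 passed, Rb1, where 0.381% of all genes did. The arrays of the times did not overlap for 4 of the 10 genes, against 10.3% of all genes. In GATA1 cells over the same time 1 gene rose and 2 fell, where 6.73% of all genes tested rose and 7.94% fell. Rbl2 fell by 0.63 ± 0.09 (adjusted p = 0.00159), Cdkn1c fell by 1.02 ± 0.28 (adjusted p = 0.0411) and Cdkn2c rose by 0.40 ± 0.12 (adjusted p = 0.0464). The Rbl2 call held in 21 of 22 alternatives and was lost in the second probe set (-0.78, adjusted p = 0.0679). The Cdkn1c call was lost in 8 of 21, among them leaving out GATA1 18 h array A (-0.84, adjusted p = 0.128), GATA1 18 h array C (0.1), vector 42 h array B (0.0525) or GATA1 42 h array A (0.074), B (0.13) or C (0.0813). The Cdkn2c call was lost in 17 of 21, with an adjusted p of up to 0.22. Ccnd2 was lower at 42 h in 20 of 21 within-letter values in GATA1 cells and in 19 of 21 in vector cells. Each 21 are 7 probe sets of 1 gene by 3 letters, which are not replicates. In GATA1 cells over time the letters did not meet the rule for pairing, so these differences are not between established pairs. How often other genes gave such counts was not tested. In GATA1 cells the probe set changes ran from -1.01 to -0.76, and adjusted p from 0.0789 to 0.572, where 10.5% of all probe sets passed. Vector and GATA1 comparisons over time use different arrays, while the GATA1 42 h arrays enter both the comparison with vector and that over time.

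The other genes of the pathway were taken from 7 lists. At 18 h none of their 70 tested genes passed in limma without a block and 7 had an unadjusted p under 0.05, a share of 10% beside 9.83% of all genes. With the letter as a block 1 rose, Stat5b, a transcription factor downstream of cytokine receptors that can act on D cyclin genes (0.53, adjusted p = 0.0967 without and 0.0196 with the block). The 2 brightest genes of each list were named at 18 h because none passed without a block, and they do not represent their lists. Their differences were small, while some other genes of the lists differed more. Among these were E2f2 (0.41, limma adjusted p = 0.214) and Mxd4 (-0.40, limma adjusted p = 0.717). The difference was -0.03 for the kinase Cdk4, 0.06 for its chaperone partner Cdc37, 0.03 for Cdkn2a, 0.01 for Cdkn2b, -0.01 for the E2F partner Tfdp1, 0.12 for E2f6, -0.01 for Rbbp4 and -0.08 for Lin54. At 18 h it was -0.01 for Pcna, -0.02 for Mcm5, 0.00 for Cks1b, 0.19 for Cks2, -0.01 for Mycn and 0.01 for Myc.

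At 42 h 16 of the 70 genes passed, a share close to the 20.9% of all genes tested. Of all genes tested 10.3% rose and 10.6% fell, and with the letter as a block 28.4% passed. The counts of each list below are to be read beside these shares. Of 8 kinases and activators that act on D cyclin and cyclin E complexes 1 fell and none rose. It was Cdk4, the partner of D cyclins, which went from 7295 ± 329 to 6411 ± 182 (-0.19, adjusted p = 0.0122). That call was lost in the fit of only the arrays compared (adjusted p = 0.0681) and without the A arrays (0.0763). The median change of this list was -0.10. Of the other INK4 genes, Cdkn2a and Cdkn2b, neither passed, at 35.6 and 29.7 for Cdkn2a and at 9.99 and 10.9 for Cdkn2b in vector and GATA1 42 h cells; none had an unadjusted p under 0.05.

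Of 10 E2F and DP factors 3 rose and none fell, and the median change was 0.20. E2f2, an activator E2F of erythroid cells, went from 159 ± 14.4 to 459 ± 40.2 (1.44 ± 0.13, adjusted p = 4.47e-05). E2f8, a repressor E2F, went from 384.5 to 602 (0.62, adjusted p = 0.00258). The third was E2f6, another repressor, at 1556 and 2076 (0.41, adjusted p = 0.0131), named after its values were seen; its call was lost without the A arrays (adjusted p = 0.112) and in the fit of only the arrays compared (0.0589). Of 7 DREAM and MuvB subunits 1 rose, Mybl2, the B-MYB subunit of cycling cells, from 387 ± 38.9 to 649 ± 149 (0.70 ± 0.21, adjusted p = 0.0405). The Mybl2 call was lost in 10 alternatives, with adjusted p of up to 0.129, 8 of them the omission of 1 array: vector 18 h B (0.056) or C (0.0555), GATA1 18 h C (0.0537), vector 42 h A (0.124), B (0.0661) or C (0.0826), and GATA1 42 h B (0.11) or C (0.129). With the letter as a block 1 also fell, Rbbp4, a histone-binding subunit (-0.13, adjusted p = 0.072 without and 0.0167 with the block). The list's median was 0.02.

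Of 16 tested S phase cyclins and E2F targets 3 rose and 1 fell (3 and 3 with the letter as a block), with a median change of -0.06. Ccne1, the cyclin that drives CDK2 at the start of S phase, went from 451 ± 64.6 to 984 ± 199.7 (1.09 ± 0.24, adjusted p = 0.011). Rrm2, a subunit of ribonucleotide reductase, went from 8735 to 13086 (0.59, adjusted p = 0.00175). The third to rise was Ccna2, the S phase and G2 cyclin, at 2755 and 3648 (0.41, adjusted p = 0.0297), named after its values were seen. Mcm6, a subunit of the replicative helicase, fell by 0.25 (adjusted p = 0.0255), and lost the call without vector 42 h array A (0.0871) or B (0.0565) or GATA1 42 h array B (0.0931), without the A arrays (0.18) and in the fit of only the arrays compared (0.0648).

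Of 14 genes for the turnover of p27 and D cyclins 2 rose and 2 fell (2 and 3 with the letter as a block), with a median of -0.09. Fbxo31, a ubiquitin ligase receptor for cyclin D1, went from 95.2 to 208 (1.02 ± 0.18, adjusted p = 0.0032), and Cul4a, a cullin scaffold, from 712 to 921 (0.37, adjusted p = 0.0133; 0.148 without the A arrays and 0.0739 with only the arrays compared). Fbxo4, also described as a receptor for cyclin D1, fell by 0.53 (adjusted p = 7.05e-04). Cul1, the scaffold of SCF ligases, fell by 0.28 (adjusted p = 0.0254), a call lost without vector 42 h array A (0.0521) or C (0.077) or GATA1 42 h array A (0.0708) or B (0.0787), and without all A arrays (0.109). Skp2, the receptor that marks p27 for degradation, read 2156 ± 112 and 1869.7 ± 193 and did not pass (adjusted p = 0.385; it was chosen after its values were seen).

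Of 13 MYC, MAX and FOXO family and STAT5 genes, regulators of several of the 10, 2 rose and 1 fell (3 and 1 with the letter as a block), with a median of -0.02. Mxd4, a MAX partner that opposes MYC, fell from 219 ± 51.6 to 43.3 ± 8.51 (-1.97 ± 0.23, adjusted p = 2.24e-04). Mxd1, of the same family, rose from 58.8 to 97.9 (0.60, adjusted p = 0.0133; 0.0512 without vector 42 h array A and 0.113 without the A arrays). Stat5b rose from 174.5 to 269 (0.58, adjusted p = 0.0111; 0.0955 without the A arrays). Myc itself read 2517 ± 390.5 and 2479 ± 303 (-0.02, adjusted p = 0.995).

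**Figure D4:**
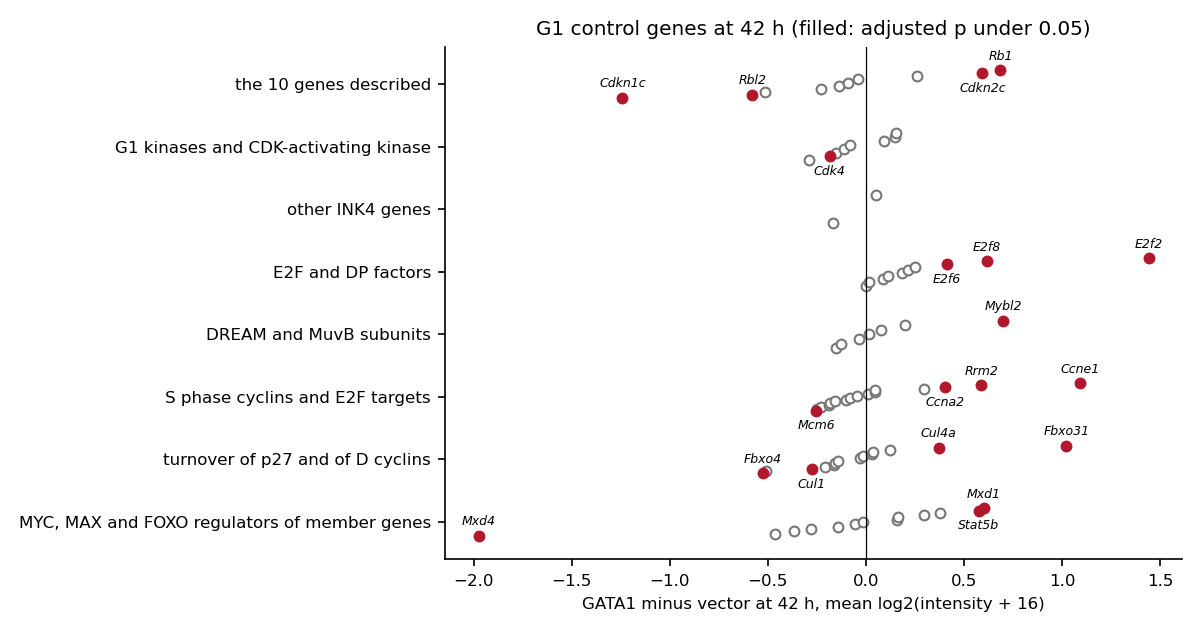
Difference of mean log2(intensity + 16) at 42 h (GATA1-labelled minus vector-labelled cells) for the 10 genes described and for each tested gene of the 7 other lists, 1 point per gene, with 3 arrays per group; filled points passed an adjusted p of 0.05 and are named. Mxd4 at -1.97 and E2f2 at 1.44 lie farthest out.

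Rb1 had the largest rise at 42 h on the log2(intensity + 16) scale, while with 1 added that of Cdkn2c was larger (0.94). The genes whose log2 values followed those of Rb1 most closely over the 12 arrays were Gpr146 (Pearson r = 0.973), Dennd2c (0.963), Phlda1 (0.955) and Fermt3 (0.95). Phlda1 went from 568 in vector to 1934 in GATA1 cells at 42 h. Those closest to Cdkn1c, with the largest fall, were Rmnd5a (r = 0.967), Ide (0.953), Iqgap2 (0.953) and Vps26a (0.946), of which Iqgap2 went from 1195 to 368 at 42 h. These correlations were the highest among 10759 genes, and the 12 arrays share their groups and letters, so they describe likeness of pattern only.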

How the data were processed

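The authors deposited linear intensity values for 45101 probe sets on each of 12 arrays, 1 value per probe set and array, and the file gives no detection call. GCRMA and MAS5 are named in the submitters' processing notes, without versions; which of them made these values, and the scaling, are not given in the sources used here. Probe sets were named through GEO's platform annotation, and only the 34945 with 1 symbol were used. No further normalization was applied. Values were analysed as log2(intensity + 16). The brightest probe set stood for a gene, tested where it exceeded the array median on at least 3 of 12 arrays (10759 of 18193 genes). The 4 groups were fitted together by lmFit and eBayes of limma 3.58.1 (R 4.3.3), with two-sided tests, and the fit was tested on simulated data; a second fit held all 19636 tested probe sets. The replicate letters were taken to pair the samples for GATA1 against vector at 18 h (deviations from the group means of same-lettered arrays correlated at 0.66, 0.31 and 0.65), at 42 h (0.60, 0.24 and 0.33) and for vector cells over time (0.54, 0.38 and 0.35), from the data alone. The members and lists were chosen with earlier results of these data known. Named were all 10 genes, up to 2 rising and 2 falling most per list (its 2 brightest where none passed), and the 4 genes closest to the member that rose most and to the one that fell most on the log2(intensity + 16) scale. Alternatives were the pseudocount, the filter, quantile normalization, the block, array weights, the arrays fitted, the probe set, leaving out each array and, chosen after seeing the data, leaving out the A arrays.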

Additional observations from a re-analysis of the deposited data

Results flagged for a closer look

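For 2 of the 70 tested genes of the lists, E2f2 and Mxd4, the GATA1 effect at 42 h differed from that at 18 h. The test was the interaction test of limma, in which 4.68% of all genes tested passed. E2f2 read 176 ± 28.8 in vector and 239 ± 30.4 in GATA1 cells at 18 h, and 159 ± 14.4 and 459 ± 40.2 at 42 h (mean ± SD, n = 3). The effects, 0.41 ± 0.13 and 1.44 ± 0.13, differed by 1.03 ± 0.18 (adjusted p = 0.0118), and without the A arrays the difference missed the threshold (adjusted p = 0.0528). Mxd4 read 332 ± 91.1 and 243 ± 41.3 at 18 h, and 219 ± 51.6 and 43.3 ± 8.51 at 42 h. Its effects, -0.40 ± 0.23 and -1.97 ± 0.23, differed by -1.57 ± 0.32 (adjusted p = 0.0237). The call for Mxd4 was lost with a pseudocount of 64 (adjusted p = 0.0684), with no filter (0.0621), without vector 18 h array C (0.0532), GATA1 18 h array A (0.0517) or C (0.0576), vector 42 h array A (0.0557) or GATA1 42 h array C (0.0561), and without the A arrays (0.0771). The difference for Fbxo31 was 0.85 ± 0.26 and did not pass (adjusted p = 0.117), but it passed with the replicate block (0.00408), with array weights (0.0466) and without vector 42 h array C (0.0405).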

How the results depend on the processing

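Over 1075 values of the 10 genes under alternatives, 1035 stayed on the same side of the threshold as the value reported, 29 lost a call, 10 gained one and 1 took the opposite sign with a call: GATA1 cells over time for Rbl1, -0.17 in the brightest and 0.51 in the second probe set (adjusted p = 0.0453). In 41 values the sign differed, and of these only the Rbl1 value had a call under either setting. The count of the 10 genes called at 42 h was 4, with 4 to 5 on leaving out each array and 3 without the A arrays. Over time in GATA1 cells it was 3, with 1 under no filter and 1 to 3 on leaving out each array. With the replicate block 1 of the 10 passed at 18 h, 1 in vector cells over time, and 2 in the interaction (Cdkn1c, adjusted p = 0.0259, and Rb1, 0.0145); it changed no other call of the 10 genes than those given beside the results and that of Ccnd2 in GATA1 cells over time (-0.99, adjusted p = 0.246 without and 0.0231 with the block; 0.0474 without the A arrays) and of Cdkn2c there (0.40, adjusted p = 0.0464 without and 0.0569 with the block). For that comparison and the interaction the letters did not meet the rule for pairing, the lowest correlations being 0.05 and -0.11. Counts over all genes at 18 h were 199, with 119 under no filter, 355 with the block, 54 with only the arrays compared, 32 without the A arrays and 101 to 200 leaving out each array. Interaction counts were 504, with 320 under no filter, 853 with the block, 258 without the A arrays and 324 to 539 leaving out each array. In vector cells over time 2 passed, with 1 under a pseudocount of 1, 5 after quantile normalization, 41 with the block, 0 with only the arrays compared, 0 without the A arrays (676 had an unadjusted p under 0.05 in the fit reported) and 1 to 3 leaving out each array. In GATA1 cells over time 1578 passed, with 2930 under array weights. The bottom of the intensity scale limits Cdkn2c, the second probe sets of Ccnd1, Cdkn1b and Rb1, and the dimmest probe set of Ccnd3. It also limits the size of the Cdkn1c fall at 42 h, where the GATA1 arrays read 22.6 to 30.5. The causes of these differences were not tested.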
